A study of Mus musculus with 21 samples.

Results

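The genes of sterol and fatty acid synthesis were followed across 7 groups of mouse B-lineage cells measured on Affymetrix whole-genome mouse arrays, with 3 arrays per group and 21 in all. They were chosen by name: every probe set whose platform gene symbol was on a list of 30 genes. Of these, 29 genes had 67 probe sets, out of 18193 genes and 45101 probe sets on the array. Acat2 is not analysed here. The 29 genes all passed the filter on low signal in every fit, so no member is missing from a count.

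The marrow was sorted for B220, a surface protein of the B lineage, and made up 4 of the groups: wild-type, LAP transgenic (a Cebpb LAP transgene), Blnk knockout, and LAP knockout, which carried the transgene and the knockout. Cebpb encodes C/EBPβ, a transcription factor of myeloid cells, and LAP is an activating form of it. BLNK links the pre-B cell receptor to the kinases below it. What drives the transgene, and how old the mice were, is unknown here. The remaining 3 groups were 1 cell line, LB31, a pre-B acute lymphoblastic leukaemia that arose in a Blnk knockout mouse and was kept in serum with 5 ng/ml interleukin 7. Its cells had received a pMY retrovirus with no insert (empty vector), with Blnk cDNA (BLNK) or with the YF mutant of Blnk, which has lost its function. The labels do not say whether arrays of a group are from different mice or cultures, so p-values reflect only the spread between these arrays, which may be technical.

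Cells build cholesterol from acetyl-CoA, first through mevalonate to farnesyl diphosphate, then through squalene and lanosterol to cholesterol. Fatty acids start from the same acetyl-CoA, which ACLY makes from citrate, and are lengthened by elongases and given double bonds by desaturases. Both routes are controlled by the SREBP transcription factors, encoded by Srebf1 and Srebf2. These are held in the endoplasmic reticulum by INSIG proteins while sterols are plentiful and are cleaved and sent to the nucleus when sterols run low. Dividing lymphocytes are known to raise both routes as they build new membrane.

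Levels are given as the normalized log2 signal, log2 of the signal plus 4 after quantile normalization of all 21 arrays, and are compared between groups for one gene at a time. Changes are log2 changes ± SE with n = 3 arrays per group. They come from limma fitted over all genes, with marrow and LB31 normalized apart except where they are compared, so a change can differ slightly from the difference of its levels. A gene was called, and is said to have risen or fallen, at a Benjamini-Hochberg adjusted p under 0.05. Replicate arrays correlated with r between 0.963 and 0.980. The median deposited signal ran from 15.3 to 31.4 per array, from 19.6 to 23.7 in wild-type and from 26.8 to 30.1 in knockout marrow.

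The labels were checked on Blnk and Cebpb. The 1 Blnk probe set did not follow them: its level was 12.44 ± 0.09 (SD, n = 3) in wild-type and 12.37 ± 0.24 in knockout marrow, and 9.63 ± 0.02 in LB31 with the empty vector against 8.56 ± 0.06 with Blnk cDNA. Whether this probe set lies in the deleted part of the gene or in the cDNA is unknown here, and a probe outside them would check nothing. The groups are therefore called knockout-labelled and BLNK-labelled, and directions drawn from them rest on the labels. Cebpb did follow the transgene, at 5.43 ± 0.10 in wild-type and 10.05 ± 0.15 in LAP transgenic marrow (SD, n = 3). LB31 with the empty vector read 10.22 ± 0.10 for Cebpb, near LAP knockout marrow at 9.90 ± 0.08 and far above knockout marrow at 5.02 ± 0.35. LB31 against knockout-labelled marrow therefore differs in Cebpb too, by 5.20 ± 0.13 (SE), and against LAP knockout-labelled marrow by 0.31 ± 0.13. The sorted marrow held RNA of other cells: the mean level of 9 neutrophil genes was 9.46 to 11.96 on marrow arrays, highest on LAP transgenic array 3, and 2.83 to 3.96 on LB31 arrays. A mean over 5 B-lineage genes was 10.14 to 10.60 in marrow and 9.52 to 9.79 in LB31. The 5 did not move as one. In empty-vector LB31 against knockout-labelled marrow Cd79a rose by 1.90 ± 0.09 and 4 fell, where 29.4% of all genes rose and 29.9% fell. In such bulk samples fewer cells of a type and less RNA per cell cannot be told apart.

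LB31 expressed nearly the whole pathway far above marrow. Against knockout-labelled marrow, 28 of the 29 genes rose in empty-vector LB31 and 0 fell, where 29.4% of the 14655 genes tested rose, 29.9% fell and 59.3% were called either way. The median change of the 29 was 1.80 on the log2 scale, against 0.07 over all genes tested. Against LAP knockout-labelled marrow 28 again rose, where 28.4% of all genes rose, 30.4% fell and 58.8% were called, with a median of 1.79 against 0.04. The pair of comparisons shares the LB31 arrays. On 25 of the 29 genes every one of the 9 LB31 arrays lay above every one of the 12 marrow arrays, which held for 18.8% of all genes. The exceptions were Srebf1, Scd1, Ebp and Tm7sf2. Without normalization between arrays 25 members rose and 1, Srebf1, fell in each comparison, and Ebp, Acly and Tm7sf2 were not called. Of the 14655 genes 1879 then rose and 6329 fell against knockout-labelled marrow, and 1648 and 6575 against LAP knockout-labelled marrow. The ratio of the Gapdh 3' to 5' control probe sets, a sign of RNA quality, also separated these samples, at 0.691 to 0.743 on LB31 arrays and 0.764 to 1.04 on marrow arrays. Within marrow it was 0.764 to 0.805 in wild-type, 0.822 to 0.850 in knockout-labelled, 0.874 to 1.04 in LAP transgenic and 0.803 to 0.923 in LAP knockout-labelled arrays. Its part in any result was not tested.

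**Figure D1:**
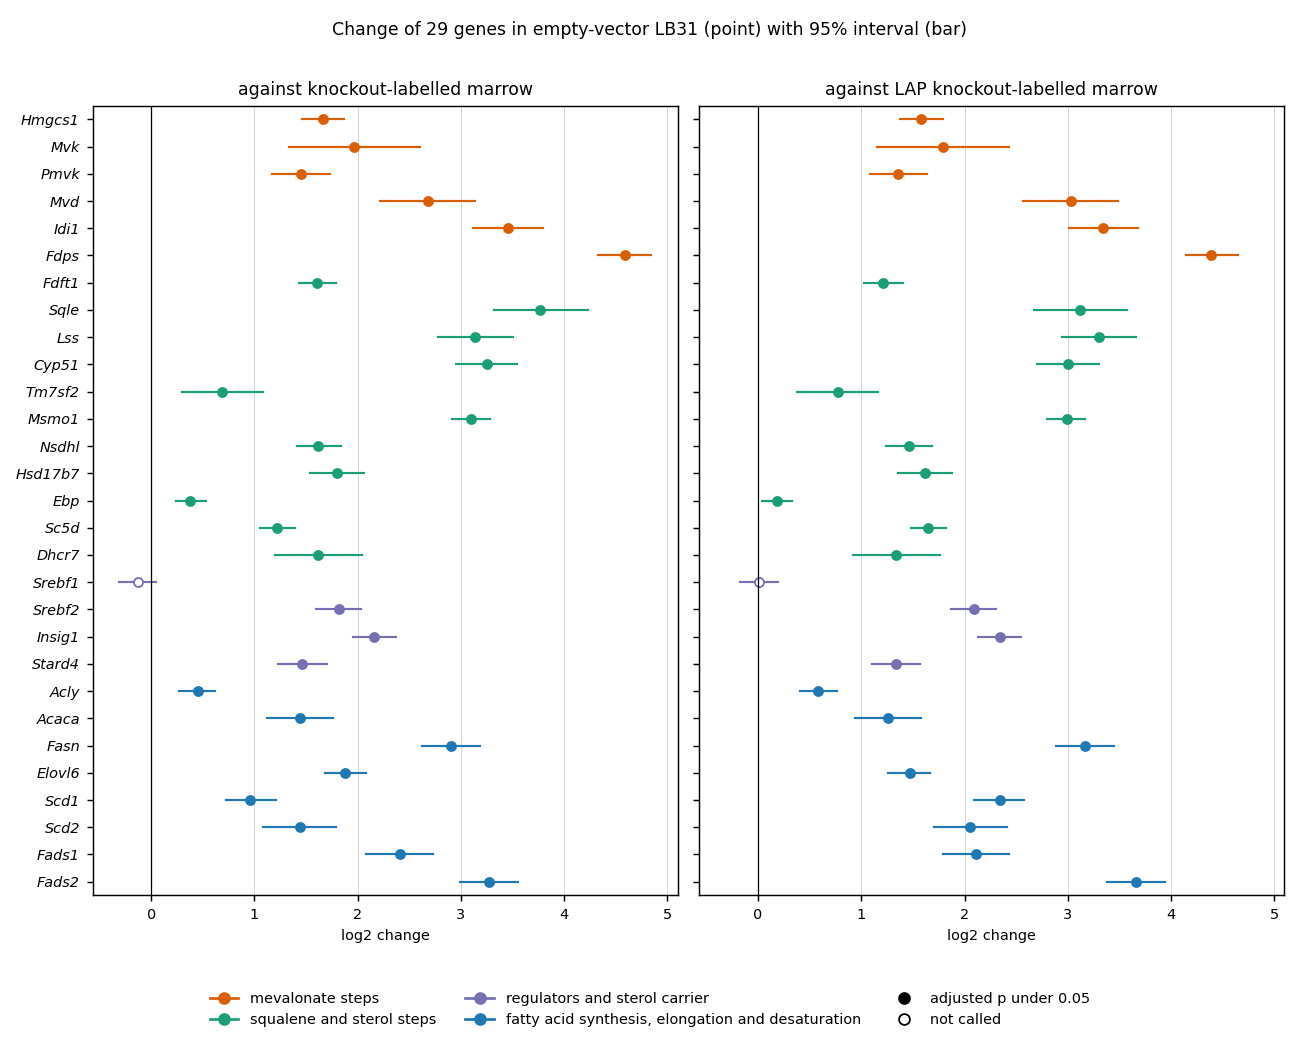
Log2 change (x axis) of each of the 29 genes (y axis, coloured by role) in empty-vector LB31 against knockout-labelled marrow (left) and LAP knockout-labelled marrow (right), with bars for the 95% interval and filled points for an adjusted p under 0.05. All genes but Srebf1 lie to the right of 0 with filled points, from Fdps at 4.59 and 4.39 to Ebp at 0.38 and 0.18.

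The mevalonate steps had the largest rise of the 4 roles against knockout-labelled marrow, with 6 of 6 genes called and a median change of 2.32. Fdps, the synthase of farnesyl diphosphate, stood at 7.32, 7.22 and 7.72 on the knockout-labelled arrays and at 11.91, 12.02 and 12.10 on those of empty-vector LB31. It rose 24.0-fold, by 4.59 ± 0.12 with an adjusted p of 1.81e-17, and was 29th of the 14655 genes by size of rise. No other member changed as much. Idi1, which interconverts the isoprene units that FDPS joins, stood at 7.51, 7.51 and 7.88 against 11.05, 11.17 and 11.06 and rose by 3.46 ± 0.16. Hmgcs1, which makes HMG-CoA, stood at 9.62, 9.63 and 9.59 against 11.39, 11.18 and 11.28 and rose 3.17-fold. Thus the rise along this segment was uneven, with Mvd at 6.40-fold, Mvk at 3.90-fold and Pmvk at 2.74-fold.

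Of the squalene and sterol steps 11 of 11 rose, with a median of 1.62. Sqle, squalene epoxidase and a rate-limiting step of the sterol branch, stood at 6.53, 6.35 and 6.54 on the knockout-labelled arrays against 10.21, 10.31 and 10.23 in LB31. It rose 13.7-fold (3.77 ± 0.22, adjusted p = 2.43e-12). Lss, the lanosterol synthase, rose 8.83-fold, Cyp51, the lanosterol demethylase, 9.48-fold, and Msmo1, which removes the methyl groups at carbon 4, 8.56-fold. Tm7sf2, a C14 reductase whose step lies between those of CYP51 and MSMO1, rose 1.61-fold. Nsdhl and Dhcr7 each rose 3.08-fold, Sc5d 2.33-fold and Ebp, the sterol isomerase, 1.30-fold. Fdft1, squalene synthase, rose 3.05-fold.

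Msmo1 stood at 7.08, 6.98 and 7.20 on knockout-labelled arrays against 10.26, 10.10 and 10.19 in LB31. Sc5d stood at 8.06, 7.96 and 8.03 against 9.16, 9.24 and 9.30, and Fdft1 at 7.80, 7.64 and 7.95 against 9.41, 9.41 and 9.40. The groups of each gene did not overlap, as for 28 of the 29 members, and all genes were not counted for this.

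The regulators differed from each other. Srebf2, which encodes the SREBP form best known for sterol genes, stood at 6.99, 6.82 and 7.0 on knockout-labelled arrays and at 8.78, 8.72 and 8.75 in LB31, a rise of 3.53-fold (1.82 ± 0.10, adjusted p = 1.79e-12). Insig1, itself an SREBP target, stood at 6.98, 6.67 and 6.99 against 9.14, 8.96 and 9.03 and rose 4.47-fold. Srebf1 was the member not called in either comparison. Its levels of 9.10, 8.87 and 9.11 overlapped those of LB31 at 8.87, 8.94 and 8.89, and its change was -0.13 ± 0.09 (95% interval -0.31 to 0.05). The array does not separate the Srebf1 isoforms here, since the gene has 1 probe set. Without normalization between arrays, Srebf1 was called lower in LB31 in both comparisons. Stard4, a cytosolic sterol carrier, rose 2.76-fold, from 7.56, 7.44 and 8.02 to 9.10, 9.15 and 9.16.

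All 8 genes of fatty acid synthesis, elongation and desaturation rose, with a median of 1.66. Fasn, the fatty acid synthase, stood at 7.23, 7.50 and 7.44 against 10.28, 10.32 and 10.26 and rose 7.44-fold (2.90 ± 0.13). Fads2, the delta-6 desaturase of polyunsaturated fatty acids, stood at 6.26, 6.06 and 6.57 against 9.70, 9.46 and 9.56 and rose 9.65-fold. Its partner Fads1 rose 5.31-fold and the elongase Elovl6 3.69-fold. Acly and Acaca, which supply the synthase with acetyl-CoA and malonyl-CoA, rose 1.36-fold and 2.71-fold. Other Acly probe sets gave larger steps, the brighter ones from means of 10.05 to 11.07 and of 7.63 to 9.35. Scd2 and Scd1, the desaturases that make monounsaturated fatty acids, rose 2.71-fold and 1.95-fold against knockout-labelled marrow, and 4.15-fold and 5.05-fold against LAP knockout-labelled marrow.

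Scd1, like Srebf1, Ebp and Tm7sf2, did not have every LB31 array above every marrow array. Its main probe set read 12.20, 12.12 and 12.25 on the wild-type arrays and 11.96, 12.02 and 11.95 in empty-vector LB31, so wild-type marrow was at the level of the line or above. Its other probe set, much dimmer, averaged 7.66 in wild-type and 9.32 in LB31, the reverse order. The probe sets thus disagree on wild-type marrow against LB31, and both rose in LB31 against each of the knockout-labelled groups.

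Genes around the pathway did not move as one. Of 8 genes for SREBP processing and sterol-sensing degradation, 2 rose and 4 fell in LB31 against knockout-labelled marrow. Over all genes 29.4% rose, 29.9% fell and 59.3% were called there, so many calls in any list are no sign of that list. Scap, the escort protein of SREBP, rose by 0.78 ± 0.12, and the ubiquitin ligase gene Rnf145 fell by 0.77 ± 0.08. Of 10 genes for LXR, sterol efflux, esterification and lysosomal export, 2 rose and 5 fell, led by Abca1, the cholesterol efflux pump, at -5.35 ± 0.30 and Cyp27a1, the sterol 27-hydroxylase, at -4.16 ± 0.33. Abca1 and Cyp27a1 are also expressed by macrophages, and the mean of 7 monocyte and macrophage genes was 8.21 to 9.09 on knockout-labelled arrays and 4.40 to 4.67 in empty-vector LB31. The part of those cells in the 2 changes was not tested. Of 14 genes of other fatty acid elongation, activation and glycerolipid synthesis, 8 rose and 3 fell. Lpin1, a phosphatidate phosphatase, fell by 3.44 ± 0.33, while Slc25a1, the mitochondrial citrate carrier, rose by 2.33 ± 0.10. Of 10 isoprenoid branch and prenylation genes 6 rose and 3 fell, and of 10 genes of mitochondrial fatty acid oxidation 2 rose and 4 fell, with the gatekeeper Cpt1a at -2.15 ± 0.46. The medians of these 5 lists were -0.25, -0.45, 0.33, 0.35 and -0.07. None came near the 1.80 of the synthesis genes.

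Of 15 cell cycle genes 6 rose and 4 fell in LB31 against knockout-labelled marrow, where 29.4% of all genes rose, 29.9% fell and 59.3% were called. Their median was 0.13, and the largest rises were Mcm2 at 1.70 ± 0.13 and Mcm3 at 1.22 ± 0.12. The part of division in the rise of the members was not tested. Neutrophil markers fell in 9 of 9 genes, and their part in the differences between LB31 and marrow was not tested. Cells in culture and cells taken from mice also cannot be told apart from leukaemia and normal marrow in this design.

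The promoters of these genes were searched in RefSeq sequence (GRCm38.p6), to see which letters the members share, Srebf1 included. The 250 bases before the start were at hand for 22 of the 29 genes, in 27 promoters, and both strands were read. The core of the sterol regulatory element, TCACNCCAC, was in 1 of the 27 member promoters (3.7%) and in 1.05% of all 32851. CCAAT, the box bound by NF-Y, was in 70.4% against 33.8%, and GGGCGG, the GC box bound by Sp1, in 74.1% against 32.7%. A gene with several promoters counts for each, as Dhcr7 and Srebf1 do with 3. Counted by gene, each box was in 18 of 22 members, against 37.5% and 35.4% of 27025 genes. Those genes were not limited to ones expressed in these cells, and what such a limit would change was not tested. CACGTG, the E-box that SREBP can also bind, was in 14.8% against 6.02%. NF-Y and Sp1 are known partners of SREBP, whose real sites vary far more than the core searched. A match is a run of letters, not a bound site, and a missing match says nothing about the factor.

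The Hmgcs1 promoter (chr13:119690101-119690350, plus strand) is shown because it holds the core, 137 bases before the start. The promoters of Idi1 (chr13:8885356-8885605, plus strand), Fads2 (chr19:10101504-10101753, minus strand) and Cyp51 (chr5:4104698-4104947, minus strand) are shown because, of the promoters at hand, they belong to the other genes with the largest rise in LB31, a choice made after the values were seen. Each is written on its gene's strand, and capitals mark the core and the CCAAT boxes on either strand.
Hmgcs1: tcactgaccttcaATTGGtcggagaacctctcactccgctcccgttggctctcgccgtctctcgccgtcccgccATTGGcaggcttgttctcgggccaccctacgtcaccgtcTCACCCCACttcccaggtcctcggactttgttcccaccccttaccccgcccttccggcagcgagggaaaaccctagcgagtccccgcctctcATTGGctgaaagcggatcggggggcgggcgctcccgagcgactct
Idi1: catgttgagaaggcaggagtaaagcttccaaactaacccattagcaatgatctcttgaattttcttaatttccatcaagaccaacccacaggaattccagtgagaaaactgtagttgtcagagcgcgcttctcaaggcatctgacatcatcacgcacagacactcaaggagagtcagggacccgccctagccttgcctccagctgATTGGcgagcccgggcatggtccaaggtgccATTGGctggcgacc
Fads2: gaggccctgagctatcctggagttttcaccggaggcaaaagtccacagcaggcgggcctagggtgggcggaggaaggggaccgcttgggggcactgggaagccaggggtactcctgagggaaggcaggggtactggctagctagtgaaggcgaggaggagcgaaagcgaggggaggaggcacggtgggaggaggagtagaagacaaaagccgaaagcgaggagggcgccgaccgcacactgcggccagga
Cyp51: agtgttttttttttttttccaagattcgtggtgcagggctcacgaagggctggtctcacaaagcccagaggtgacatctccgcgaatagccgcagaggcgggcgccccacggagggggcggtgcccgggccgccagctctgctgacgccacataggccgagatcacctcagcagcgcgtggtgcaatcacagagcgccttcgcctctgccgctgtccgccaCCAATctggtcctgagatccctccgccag
Hmgcs1 had 3 CCAAT boxes and 2 GC boxes, Idi1 had 2 and 1, and Cyp51 had 1 and 1. Fads2, which rose 9.65-fold, had no CCAAT box and 1 GC box in this window, so genes that rose as steeply did not share all of these letters.

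Within marrow, Elovl6 and Scd1, both enzymes of fatty acid synthesis, changed in opposite directions. In knockout-labelled against wild-type marrow 7 of the 29 genes rose and 1 fell, 8 genes called in all, where 8.38% of 13342 genes rose, 8.69% fell and 17.1% were called. Elovl6, Fads2, Fads1 and Scd2 rose, as did Sqle, Hmgcs1 and Srebf1, and Scd1 fell. The median change of the 29 was 0.17, against 0.01 over all genes tested. In LAP transgenic marrow 1 member fell and 0 rose, where 2.11% of genes rose, 1.88% fell and 3.99% were called. In LAP knockout-labelled marrow 11 rose and 3 fell, where 16.5% rose, 14.7% fell and 31.2% were called.

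**Figure D2:**
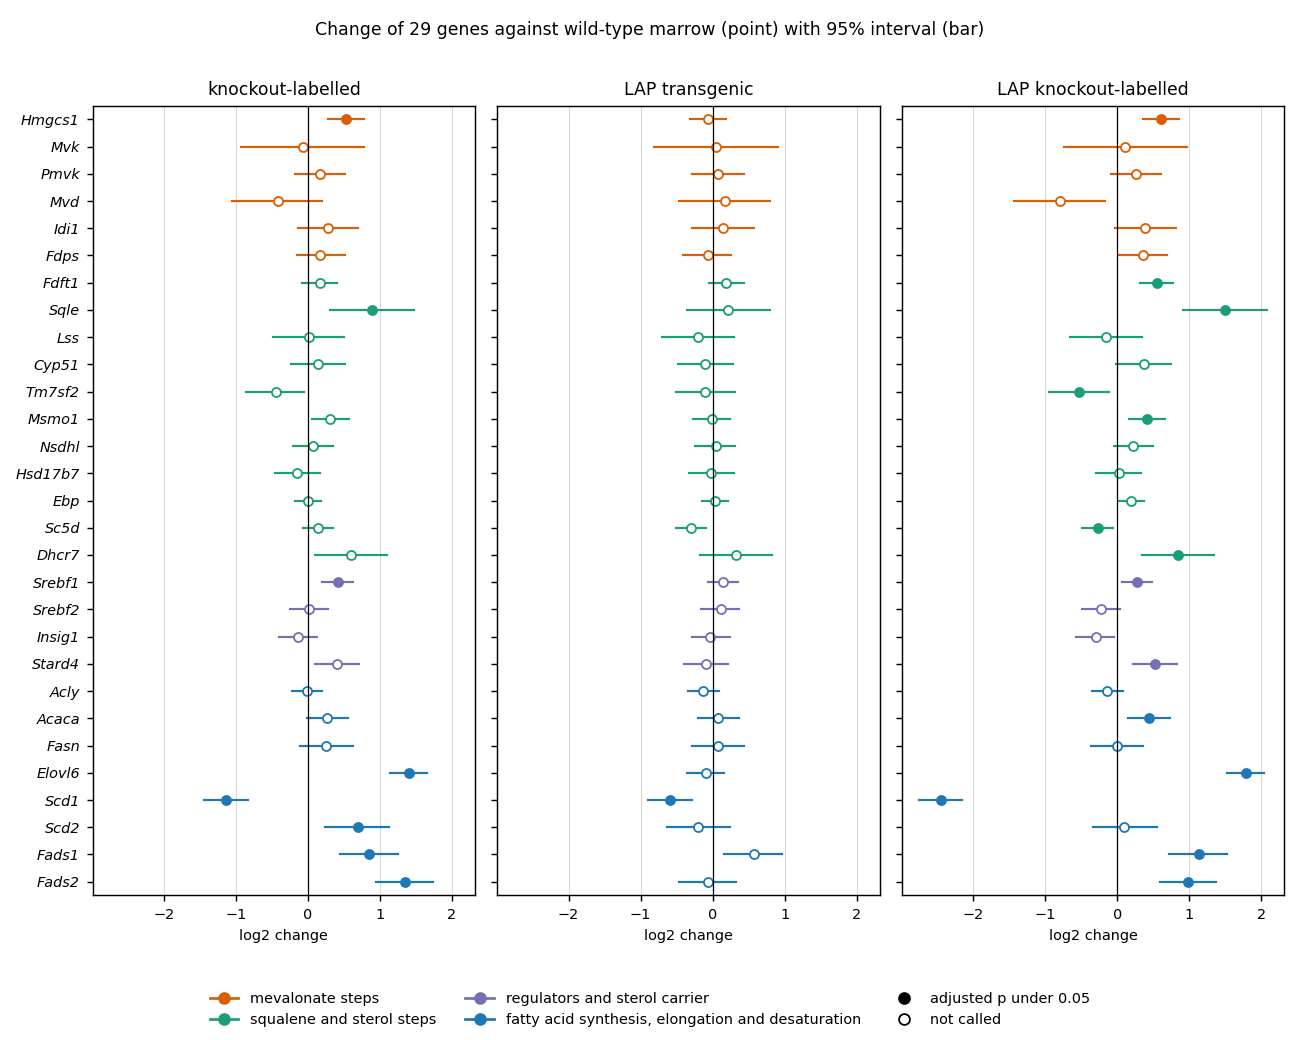
Log2 change (x axis) of each of the 29 genes (y axis, coloured by role) in knockout-labelled, LAP transgenic and LAP knockout-labelled marrow against the same 3 wild-type arrays, with bars for the 95% interval and filled points for an adjusted p under 0.05. Scd1 lies to the left in every panel, at -1.14, -0.59 and -2.45, and Elovl6 to the right in the outer panels at 1.40 and 1.79.

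The split depends on how arrays are put on 1 scale. Without normalization the median of all genes shifted by 0.30 for the knockout label and by 0.36 for both changes, each against wild-type. Members called higher and lower were then 16 and 1 for the former and 17 and 1 for the latter, and with median centring 5 and 1, and 8 and 3. Among all genes the counts called higher and lower in knockout-labelled marrow were 1118 and 1159 as reported, 3215 and 377 without normalization, and 771 and 1578 with median centring. In LAP knockout-labelled marrow they were 2204 and 1959, 4724 and 784, and 1610 and 2370. Elovl6, Fads1, Fads2, Sqle and Hmgcs1 were called higher, and Scd1 lower, under all 3 scalings in both of these comparisons. With median centring Scd2 and Srebf1 lost their calls in knockout-labelled marrow, and Srebf1, Msmo1 and Acaca lost theirs in LAP knockout-labelled marrow.

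Scd1 fell in all 5 comparisons of marrow groups. Its levels were 12.20, 12.12 and 12.25 in wild-type, 11.64, 11.60 and 11.49 with LAP, 10.80, 11.38 and 10.86 with the knockout label and 9.83, 9.76 and 9.33 with both. No group overlapped the next. Against wild-type marrow it fell by 0.59 ± 0.14 with LAP (adjusted p = 0.0345), fell by 1.14 ± 0.14 with the knockout label (adjusted p = 0.000106) and fell by 2.45 ± 0.14 with both (adjusted p = 4.27e-08). The interaction term, the combined change less both single changes, was -0.72 ± 0.20 and was not called (unadjusted p = 0.00324). The fall with both changes was also called against knockout-labelled marrow, at -1.31 ± 0.14, and against LAP transgenic marrow, at -1.86 ± 0.14.

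The other Scd1 probe set fell in 3 of these 5 comparisons. Against wild-type it gave -0.76 ± 0.17 with the knockout label and -1.31 ± 0.17 with both changes, and it gave -0.85 ± 0.17 in LAP knockout-labelled against LAP transgenic marrow. In LAP transgenic against wild-type marrow it gave -0.46 ± 0.17 with an adjusted p of 0.160, and leaving out any 1 of the 6 arrays, in turn, also ended the call of the main probe set there. Of 4 plasmacytoid dendritic cell genes, 0 were called in knockout-labelled, 1 fell in LAP transgenic and 4 fell with both changes, each against wild-type marrow. Over all genes 8.69%, 1.88% and 14.7% fell in these comparisons. The mean level of the 4 genes was 8.19 in wild-type, 7.45 with LAP, 8.56 with the knockout label and 6.67 with both. The part of those cells in the Scd1 result was not tested.

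Scd2, the isoform that carries out the same reaction, did not follow Scd1. Its levels were 10.44, 10.54 and 10.50 in wild-type and 11.22, 11.25 and 11.18 in knockout-labelled marrow, a rise of 0.69 ± 0.20 (adjusted p = 0.0360), which was lost without any 1 of the 6 arrays (adjusted p 0.0716 to 0.104). In LAP transgenic marrow it stood at 10.63, 10.55 and 9.67, the low value being array 3, and in LAP knockout-labelled marrow at 10.66, 10.93 and 10.21. Neither of these groups was called against wild-type.

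Elovl6, which lengthens palmitate to stearate, followed the knockout label. It stood at 7.58, 7.44 and 7.73 in wild-type, 7.64, 7.65 and 7.17 with LAP, 9.08, 8.98 and 9.04 with the knockout label and 9.43, 9.46 and 9.46 with both. The first 2 groups overlapped and the others lay well above them. It rose by 1.40 ± 0.12 in knockout-labelled marrow (adjusted p = 4.99e-06), by 1.79 ± 0.12 with both changes (adjusted p = 1.54e-07) and by 1.88 ± 0.12 in LAP knockout-labelled against LAP transgenic marrow. The LAP change itself was -0.09 ± 0.12 in otherwise wild-type marrow and 0.39 ± 0.12 in knockout-labelled marrow, neither called. The difference between them, 0.48 ± 0.17, was not called (adjusted p = 0.189).

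The polyunsaturated desaturases moved with Elovl6. Fads2 stood at 4.83, 5.03 and 4.92 in wild-type, 4.88, 4.85 and 4.84 with LAP, 6.26, 6.06 and 6.57 with the knockout label and 6.07, 6.09 and 5.57 with both. It rose by 1.34 ± 0.18 (adjusted p = 0.000230) and 0.98 ± 0.18 (adjusted p = 0.00106) in the knockout-labelled groups against wild-type. Its wild-type signal was low, near the filter level of 4.06, and what this does to the changes was not tested. Its other probe sets gave smaller steps. Their means in wild-type, knockout-labelled and LAP knockout-labelled marrow were 4.84, 5.52 and 5.31, and 2.83, 3.59 and 3.32. Fads1 stood at 6.14, 6.23 and 6.14 in wild-type, 6.99, 6.88 and 7.39 in knockout-labelled and 7.46, 7.34 and 7.35 in LAP knockout-labelled marrow, and rose by 0.84 ± 0.19 and 1.13 ± 0.19. Its LAP transgenic arrays read 6.49, 6.56 and 7.32, all above wild-type and highest on array 3, and the change of 0.57 ± 0.19 was not called (adjusted p = 0.109).

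Fasn, the synthase at the head of this branch, did not show the change of its later enzymes. It stood at 7.07, 7.30 and 6.99 in wild-type, 7.37, 7.30 and 6.92 with LAP, 7.23, 7.50 and 7.44 with the knockout label and 7.39, 7.22 and 6.73 with both. All 4 groups overlapped. Acly was likewise called in no marrow comparison, and Acaca rose in 1, LAP knockout-labelled against wild-type marrow, by 0.44 ± 0.13 (adjusted p = 0.0233).

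**Figure D3:**
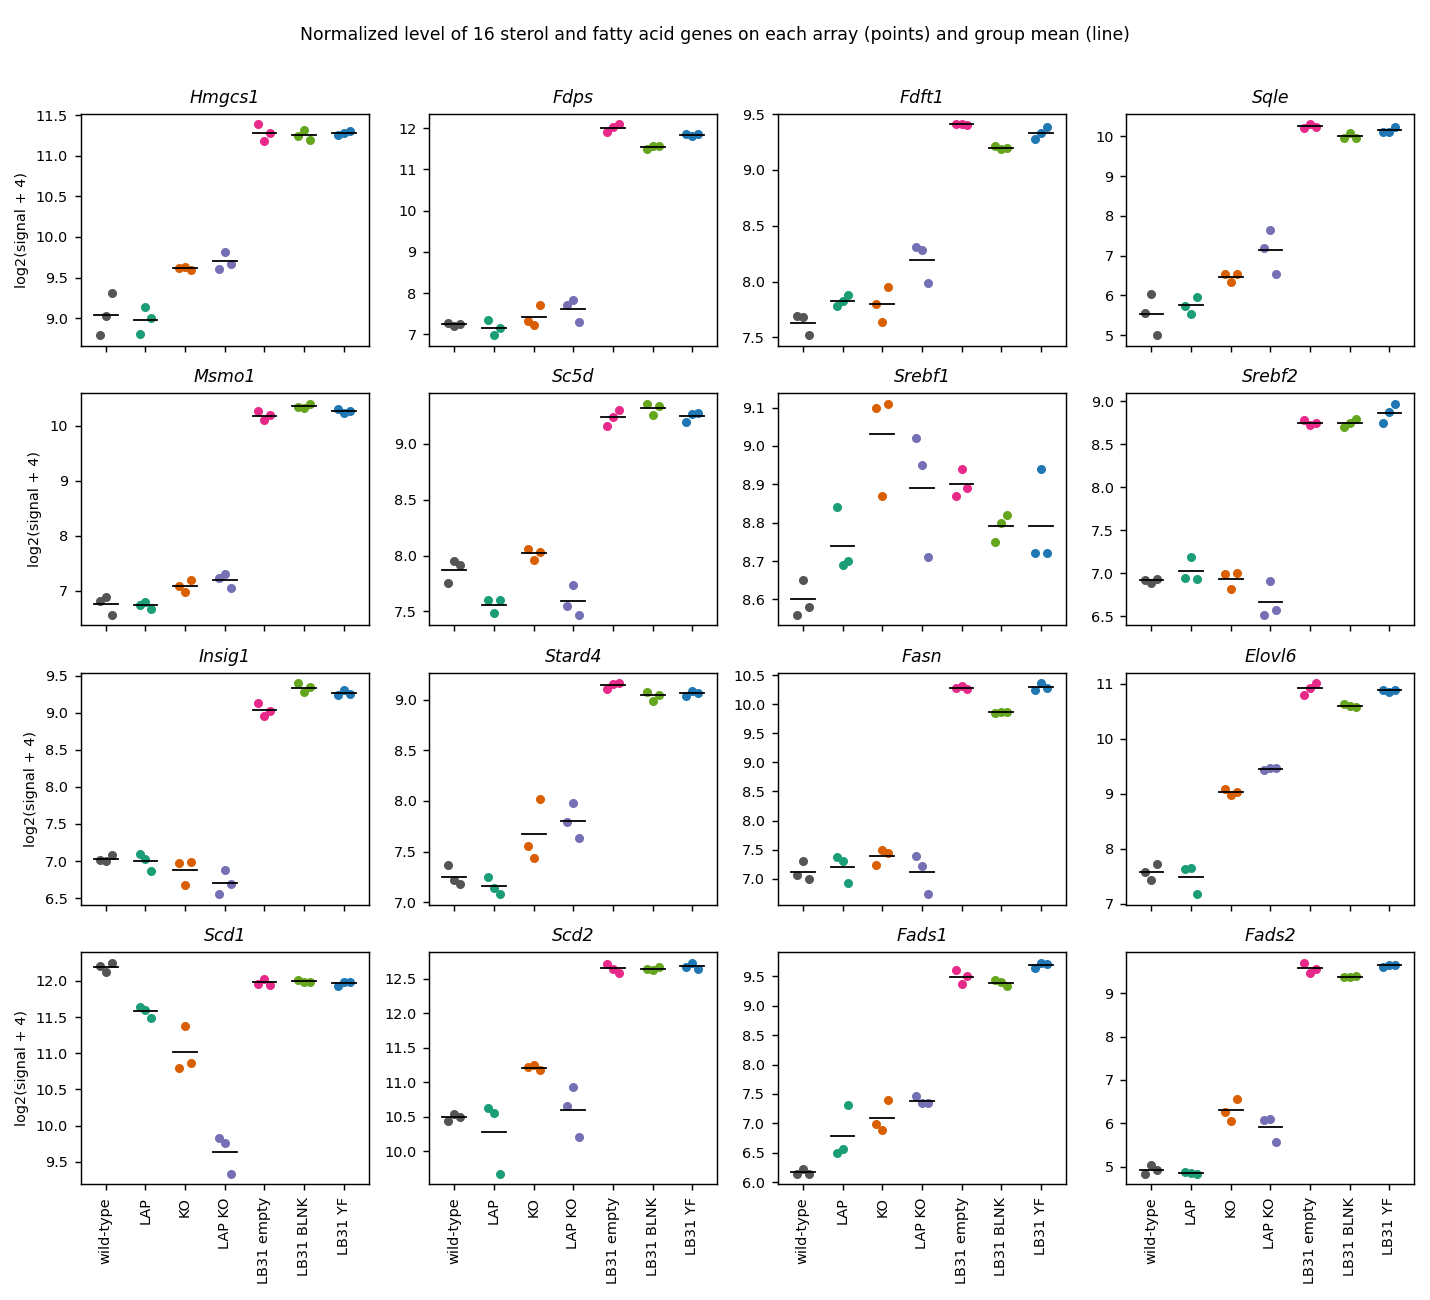
Normalized log2 signal (y axis, a separate scale for each panel) of 16 genes on each array (points) with the group mean (line) for the 4 marrow and 3 LB31 groups (x axis). The marrow group means of Fdps and Fasn lie between 7.12 and 7.62, Scd1 steps down from 12.19 in wild-type to 9.64 in LAP knockout-labelled marrow, and those of Srebf1 lie between 8.60 and 9.03 in all 7 groups.

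In the sterol branch of marrow cells the called changes were at a few steps. Sqle stood at 5.56, 6.03 and 5.00 in wild-type, 5.74, 5.52 and 5.97 with LAP, 6.53, 6.35 and 6.54 with the knockout label and 7.20, 7.65 and 6.53 with both. It rose 1.85-fold (0.89 ± 0.27, adjusted p = 0.0383) in knockout-labelled and 2.83-fold (adjusted p = 0.000889) in LAP knockout-labelled marrow. The first of these calls was lost without the filter on low signal (adjusted p = 0.0571) and without any of 5 of its 6 arrays, wild-type array 2 being the exception. Hmgcs1 stood at 8.79, 9.03 and 9.31 in wild-type, 8.80, 9.14 and 9.0 with LAP, 9.62, 9.63 and 9.59 with the knockout label and 9.61, 9.82 and 9.67 with both. It rose by 0.53 ± 0.12 (adjusted p = 0.00694) and 0.61 ± 0.12 (adjusted p = 0.00144). Fdps, the gene with the greatest rise in LB31, was called in no marrow comparison, with levels from 6.98 to 7.84 over the 12 arrays.

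With both changes more sterol genes passed the test. Dhcr7, the last reductase of the Kandutsch-Russell route to cholesterol, rose by 0.85 ± 0.23 against wild-type marrow (adjusted p = 0.0128), Fdft1 by 0.55 ± 0.11 (adjusted p = 0.00211), Stard4 by 0.52 ± 0.14 (adjusted p = 0.0129) and Msmo1 by 0.42 ± 0.12 (adjusted p = 0.0157). The Dhcr7 call was lost without wild-type array 1 or LAP knockout array 1 or 2 (adjusted p 0.0517 to 0.0592). Fdft1 stood at 7.69, 7.68 and 7.52 in wild-type and 8.31, 8.28 and 7.99 with both changes. Stard4 stood at 7.37, 7.22 and 7.18 against 7.79, 7.98 and 7.64, and Msmo1 at 6.81, 6.88 and 6.56 against 7.23, 7.31 and 7.05. The groups of each gene did not overlap, as for 21 of the 29 members, called or not, and all genes were not counted for this.

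Sc5d and Tm7sf2 went the other way. Sc5d, the sterol C5 desaturase, stood at 7.75, 7.95 and 7.92 in wild-type, 7.60, 7.49 and 7.60 with LAP, 8.06, 7.96 and 8.03 with the knockout label and 7.55, 7.74 and 7.47 with both. Both LAP groups were below both groups without LAP. It fell by 0.42 ± 0.10 in LAP knockout-labelled against knockout-labelled marrow (adjusted p = 0.0193) and by 0.27 ± 0.10 against wild-type (adjusted p = 0.0480), while LAP alone gave -0.30 ± 0.10 (adjusted p = 0.107). The change of -0.27 turned to 0.04 ± 0.13 without normalization, and neither call held when all probe sets of the gene were averaged. The call against knockout-labelled marrow was lost without knockout array 1 or LAP knockout array 1 or 3 (adjusted p 0.0634 to 0.0822), and that against wild-type without wild-type array 2 or 3 or LAP knockout array 1 or 3 (adjusted p 0.117 to 0.162). Tm7sf2, a sterol C14 reductase, fell by 0.53 ± 0.19 with both changes (adjusted p = 0.0474), a call lost without any 1 of the 6 arrays. Mvd, the mevalonate diphosphate decarboxylase, fell by 0.97 ± 0.29 in LAP knockout-labelled against LAP transgenic marrow (adjusted p = 0.0244). Its LAP knockout arrays read 4.72, 4.99 and 4.02, near the filter level of 4.06. The mean of its other probe set was 4.53 with LAP and 4.42 with both changes. The Mvd call was lost on values as deposited (adjusted p = 0.0992), with averaged probe sets (adjusted p = 0.0883) and without LAP transgenic array 1 or 3 or LAP knockout array 3 (adjusted p 0.0702 to 0.107).

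In that comparison, which asks what the knockout label changed on a LAP background, 8 members rose and 2 fell, where 14.5% of genes rose, 12.5% fell and 27.0% were called. Without normalization 21 members rose and 1 fell, where 5458 of 13342 genes rose and 565 fell. Besides Elovl6 and Fads2 (1.05 ± 0.18), Sqle rose by 1.28 ± 0.27, Hmgcs1 by 0.67 ± 0.12 and Stard4 by 0.62 ± 0.14. In LAP knockout-labelled against knockout-labelled marrow 0 rose and 2 fell, Scd1 and Sc5d, where 3.30% of genes rose, 4.35% fell and 7.65% were called. No member was called for the interaction of LAP and the knockout label, where limma called 0.487% of genes higher, 1.24% lower and 1.73% in all, and 2 members had an unadjusted p under 0.05. No member was called in both directions within marrow.

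On their main probe sets the regulators moved little in marrow. Srebf1 stood at 8.56, 8.65 and 8.58 in wild-type, 8.84, 8.69 and 8.70 with LAP, 9.10, 8.87 and 9.11 with the knockout label and 9.02, 8.95 and 8.71 with both. It rose by 0.41 ± 0.10 (adjusted p = 0.00995) and 0.28 ± 0.10 (adjusted p = 0.0409) in the knockout-labelled groups. Srebf2 read 6.52 to 7.19 and Insig1 6.55 to 7.10 over the 12 marrow arrays, and neither was called in any marrow comparison. The other Srebf2 probe set differed, with means of 5.65 in wild-type, 6.10 with LAP, 6.18 with the knockout label and 6.18 with both. Neither Srebf1 call held with median centring.

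Genes for LXR, sterol efflux, esterification and lysosomal export moved both ways in marrow. Of 10 tested, 1 rose and 2 fell in knockout-labelled, 1 rose and 2 fell in LAP transgenic and 1 rose and 3 fell in LAP knockout-labelled against wild-type marrow, where 17.1%, 3.99% and 31.2% of all genes were called. Abca1 fell by 1.03 ± 0.16, 0.79 ± 0.16 and 1.82 ± 0.16 in these groups. Mylip, whose product degrades the LDL receptor and which is an LXR target like Abca1, fell by 0.52 ± 0.09, 0.37 ± 0.09 and 0.99 ± 0.09 in them. The genes that rose are named after their values were seen: Abcg1, a sterol efflux pump, by 0.42 ± 0.10 in knockout-labelled marrow, and Cyp27a1 by 1.34 ± 0.17 in LAP transgenic and 0.85 ± 0.17 in LAP knockout-labelled marrow. Of the 8 genes for SREBP processing 1 rose and 1 fell in knockout-labelled, 0 were called in LAP transgenic, and 1 rose and 3 fell in LAP knockout-labelled marrow. Fatty acid oxidation genes were called in 1, 0 and 3 of 10 cases in these groups.

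Genes of division and of other cells also differed between these groups. Of 15 cell cycle genes 5 rose in knockout-labelled, 1 in LAP transgenic and 13 with both changes, each against wild-type, and 0 fell. Over all genes 8.38%, 2.11% and 16.5% rose in these comparisons. The mean of 5 megakaryocyte genes was 8.04 to 8.10 in wild-type and 9.47 to 10.08 in LAP knockout-labelled marrow, and that of 9 neutrophil genes 9.68 to 10.11 and 10.62 to 11.21. In knockout-labelled marrow 0 of 9 neutrophil genes were called, and 2 of 9 rose with both changes, where 16.5% of all genes did. The part of division or of other cells in the marrow results was not tested. Without LAP transgenic array 3, on which neutrophil genes were highest, 9 members were called in LAP knockout-labelled against LAP transgenic marrow and 0 in LAP transgenic against wild-type marrow.

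BLNK-labelled LB31 differed from empty-vector LB31 by small changes in both directions. In BLNK-labelled against empty-vector LB31 2 members rose and 7 fell, where 7.34% of 13034 genes rose, 8.55% fell and 15.9% were called. Fdps fell by 0.47 ± 0.05 (adjusted p = 2.04e-05), Fasn by 0.44 ± 0.04 (adjusted p = 1.57e-05), Elovl6 by 0.34 ± 0.05 (adjusted p = 0.000673), Sqle by 0.26 ± 0.06 (adjusted p = 0.00648) and Ebp by 0.25 ± 0.05 (adjusted p = 0.00548). Fdft1 and Fads2 fell by 0.23 ± 0.05 and 0.21 ± 0.06. Insig1 rose by 0.32 ± 0.06 (adjusted p = 0.00242) and Msmo1 by 0.18 ± 0.05 (adjusted p = 0.0246). The Msmo1 call was lost with averaged probe sets (adjusted p = 0.137) and without any of 5 of the 6 arrays, empty-vector array 1 being the exception (adjusted p 0.0508 to 0.102). The median of the 29 was -0.03, against -0.01 over all genes.

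**Figure D4:**
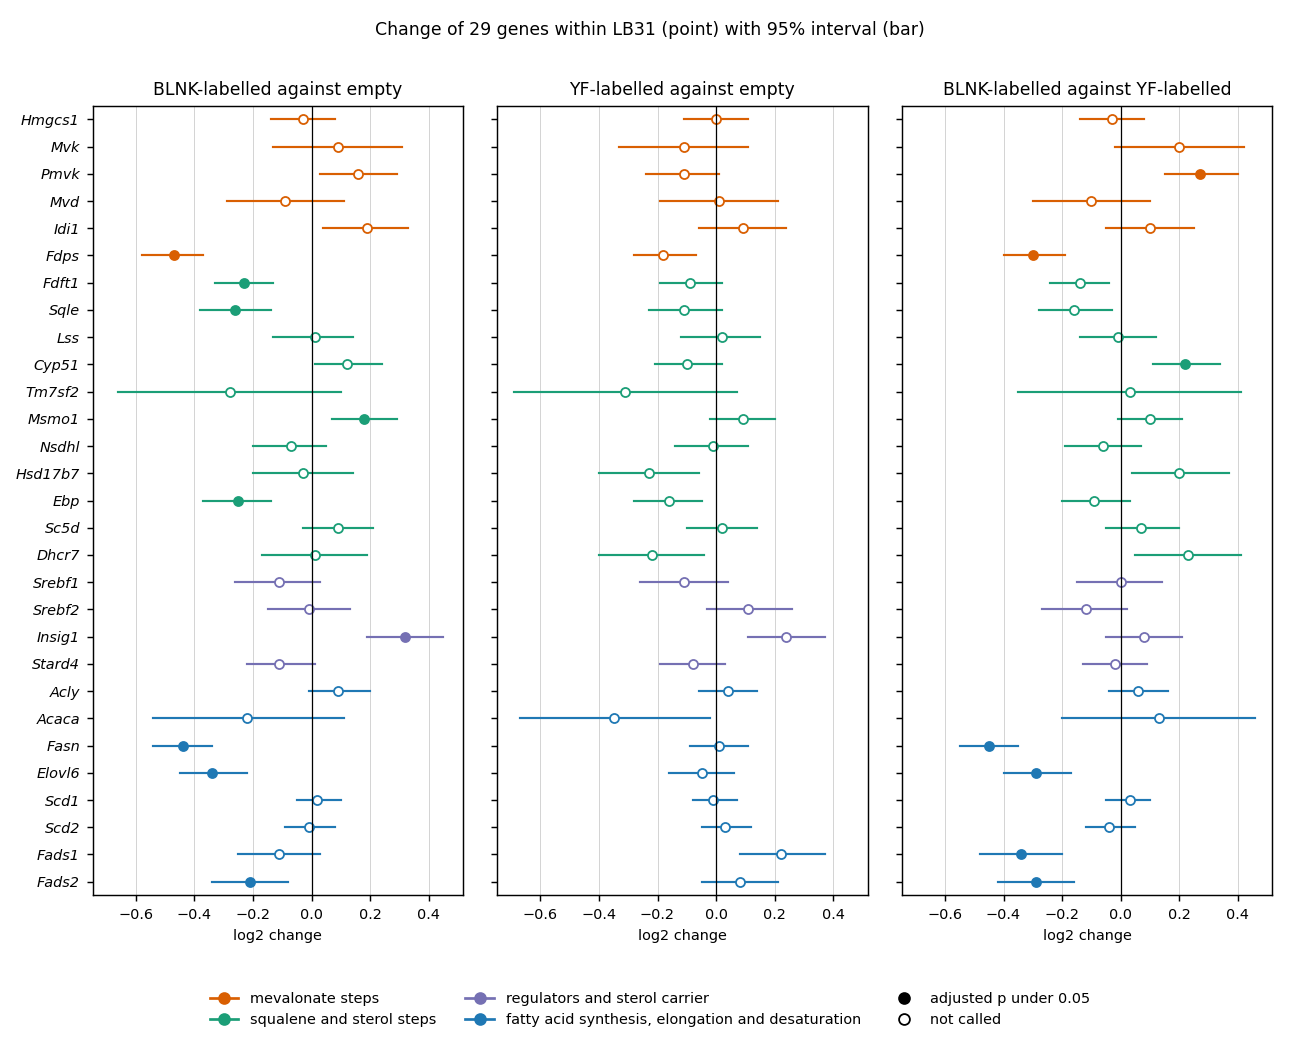
Log2 change (x axis) of each of the 29 genes (y axis, coloured by role) for BLNK-labelled against empty-vector, YF-labelled against empty-vector and BLNK-labelled against YF-labelled LB31, with bars for the 95% interval and filled points for an adjusted p under 0.05. Fdps and Fasn lie to the left in the outer panels, at -0.47 and -0.44 against the empty vector and -0.30 and -0.45 against YF, and no point is filled in the middle panel.

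The arrays behind these changes were close to each other. Fasn stood at 10.28, 10.32 and 10.26 with the empty vector, 9.85, 9.87 and 9.87 with BLNK and 10.24, 10.36 and 10.28 with YF. Fdps stood at 11.91, 12.02 and 12.10, then 11.49, 11.58 and 11.58, then 11.86, 11.81 and 11.86. For Fasn the YF arrays spanned the empty-vector arrays, while for Fdps they lay between both other groups. Elovl6 stood at 10.80, 10.93 and 11.01, then 10.63, 10.60 and 10.57, then 10.89, 10.85 and 10.88. Sqle stood at 10.21, 10.31 and 10.23, then 9.96, 10.09 and 9.95, then 10.11, 10.10 and 10.24, and Fdft1 at 9.41, 9.41 and 9.40, then 9.21, 9.19 and 9.20, then 9.28, 9.33 and 9.38. For these 3 genes too every BLNK array was below every empty-vector array. The genes were named because they were called, so this is no further test. Of the 29 members, 15 did not overlap in this comparison. Between YF and the empty vector 10 did not overlap, where 0 were called. The share over all genes was not counted.

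Insig1, whose product retains SREBP, stood at 9.14, 8.96 and 9.03 with the empty vector, 9.40, 9.28 and 9.35 with BLNK and 9.24, 9.31 and 9.26 with YF. Msmo1 stood at 10.26, 10.10 and 10.19, then 10.34, 10.33 and 10.40, then 10.31, 10.23 and 10.26. The Insig1 change with YF against the empty vector was 0.24 ± 0.06 and was not called (adjusted p = 0.0982). It differed little between BLNK and YF, at 0.08 ± 0.06 (95% interval -0.05 to 0.21).

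The direct comparison of BLNK with the YF mutant called 2 members higher and 5 lower, where 3.92% of genes rose, 5.09% fell and 9.01% were called. Fasn fell by 0.45 ± 0.04 (adjusted p = 1.81e-05), Fads1 by 0.34 ± 0.07 (adjusted p = 0.00484), Fdps by 0.30 ± 0.05 (adjusted p = 0.00146), Elovl6 by 0.29 ± 0.05 (adjusted p = 0.00336) and Fads2 by 0.29 ± 0.06 (adjusted p = 0.00787). Fads1 stood at 9.44, 9.40 and 9.34 with BLNK against 9.65, 9.73 and 9.71 with YF, and Fads2 at 9.38, 9.37 and 9.39 against 9.61, 9.66 and 9.65. Neither pair of groups overlapped, as for 15 of the 29 members, called or not, and all genes were not counted for this. Pmvk, the phosphomevalonate kinase, rose by 0.27 ± 0.06 and Cyp51 by 0.22 ± 0.05. The Pmvk call was lost without YF array 1 (adjusted p = 0.0501), and the Cyp51 call without BLNK array 1 or 3 or YF array 3 (adjusted p 0.0661 to 0.0921) and with averaged probe sets (adjusted p = 0.178). The Fads1 call was also lost with averaged probe sets (adjusted p = 0.154). The 2 comparisons with BLNK share the BLNK arrays. YF against the empty vector called no member, where limma called 0.130% of genes higher, 0.215% lower and 0.345% in all, and 7 members had an unadjusted p under 0.05. With median centring 6 members were called higher with YF, where 1317 of 13034 genes were, and without normalization 2, where 576 were. Leaving out empty-vector array 1 called 6 members, 2 higher and 4 lower, and all genes were not counted in that fit.

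Scd1, Scd2, Srebf1, Srebf2, Hmgcs1, Sc5d and Stard4 were called in no LB31 comparison. Scd1 ranged from 11.93 to 12.02 over the 9 arrays and Scd2 from 12.59 to 12.73. The other Scd1 probe set rose by 0.30 ± 0.05 in BLNK-labelled against empty-vector LB31 and by 0.21 ± 0.05 against YF. Srebf1 ranged from 8.72 to 8.94, Srebf2 from 8.70 to 8.97, Hmgcs1 from 11.18 to 11.39, Sc5d from 9.16 to 9.36 and Stard4 from 8.99 to 9.16. Scd1, the gene with the largest fall in marrow, had a narrow range over the LB31 arrays on its main probe set.

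These changes are small enough for the scaling of the arrays to decide the calls. With median centring the median of all genes shifted by 0.13, and 7 members were called higher and 0 lower in BLNK-labelled against empty-vector LB31. Among 13034 genes 1500 were called higher and 310 lower there. Of the 9 calls reported, 2 were kept. Without normalization the shift was 0.11 and 0 members were called, where 358 of 13034 genes were called higher and 147 lower. Fdps then changed by -0.19 ± 0.16 and Fasn by -0.22 ± 0.18. With median centring Elovl6 changed by -0.05, Ebp by -0.05 and Sqle by -0.02, and without normalization by -0.07, -0.07 and -0.03. Against YF, 0 members were called higher and 1 lower under each of those scalings, and that gene was Fasn, at -0.50 ± 0.11 (adjusted p = 0.00386) with median centring. Of all genes, 131 were called higher and 547 lower against YF with median centring, and 66 and 487 without normalization.

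**Figure D5:**
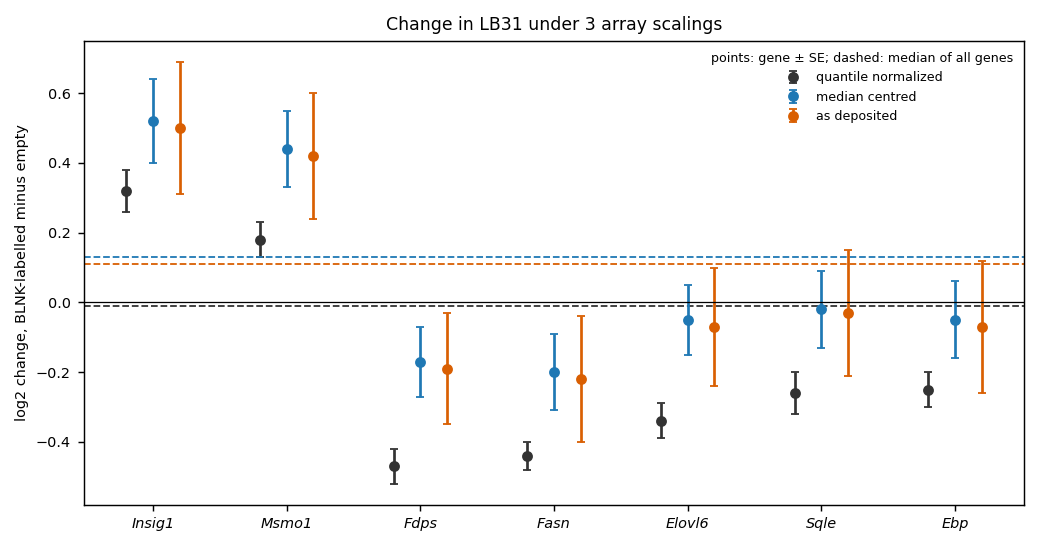
Log2 change (y axis, points ± SE) of 7 called genes (x axis) in BLNK-labelled against empty-vector LB31, with arrays quantile normalized, median centred or as deposited, and dashed lines for the median of all genes under each scaling. Fdps and Fasn lie below the dashed line of their scaling, while their distance from 0 shrinks from -0.47 and -0.44 to -0.17 and -0.20 with median centring.

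Around the pathway, of 9 genes for LXR, sterol efflux, esterification and lysosomal export 0 rose and 4 fell in BLNK-labelled against empty-vector LB31, where 15.9% of all genes were called, led by Npc2, a lysosomal cholesterol carrier, at -0.45 ± 0.04 and Abcg1 at -0.41 ± 0.08. Against YF 0 rose and 4 fell, where 9.01% of all genes were called. Of 8 genes for SREBP processing 0 rose and 2 fell, with Rnf145 at -0.66 ± 0.06 and Scap at -0.42 ± 0.07. Of 10 oxidation genes 2 rose and 1 fell, and of 15 cell cycle genes 4 rose and 1 fell.

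The members varied together across arrays. Over the 21 arrays the median correlation was 0.95 among 136 pairs of sterol genes, 0.92 among 28 pairs of fatty acid genes and 0.93 between both sets, against 0.00 for 1073845 pairs drawn evenly from all genes. These values include the step between marrow and LB31. After each group's mean was removed, the medians were 0.20, 0.21 and 0.12, against 0.00. These are descriptions over arrays that share normalization, and the pairs share genes.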

How the data were processed

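Transcript levels were measured on 21 arrays, with 100 ng of total RNA labelled per array, per the labels. The authors deposited a linear signal intensity per probe set, made with MAS5 per the submitters' processing notes. Any scaling to a shared target was not stated. In R 4.3.3, 4 was added to each signal and log2 taken, and the arrays of a fit (12 marrow, 9 LB31 or all 21) were quantile normalized, which removes any true difference in total message. The 64 control probe sets were left out. Platform annotation gave 34945 probe sets 1 symbol, 932 several and 9160 none here. Each gene was read from its probe set with the highest mean. Other probe sets of 20 members can disagree, and those called against the main one numbered 0 where it was called. Genes were tested where 3 or more arrays read above their own 40th percentile, which left 13342, 13034 and 14655 genes. limma 3.58.1 (eBayes with trend, two-sided) gave changes, and Benjamini-Hochberg adjustment ran over all genes of a fit. The code was tested on simulated data.

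The members and lists were chosen with earlier results of these data known. Values on every array are given for members called in at least 2 of the 5 marrow or 2 of the 3 LB31 comparisons, and for Srebf1, Srebf2, Insig1, Scd1 and Scd2. Per comparison the called members with the largest change, up to 5 per direction, were picked to be followed under the alternatives. Further called members are named with their change as well. At most 2 genes of any other list are named per comparison, save for more of the LXR list in marrow. Alternatives were other scalings, pseudocounts of 1 and 16, no filter, averaged probe sets, other arrays in the fit, a replicate block and leaving out each array.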

Additional observations from a re-analysis of the deposited data

How the results depend on the processing

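Alternatives were followed for 48 changes, the largest called ones, up to 5 per direction in each comparison. Of these, 25 kept their direction and their call under every alternative, leaving out each array included. Among the 48 the direction reversed once, for Sc5d in LAP knockout-labelled against wild-type marrow, at 0.04 on values as deposited. Without normalization, 27 of the 28 members called in LB31 against knockout-labelled marrow kept their direction. Against LAP knockout-labelled marrow 26 of 28 did. The count of members called in LB31 against either knockout-labelled marrow group was 26 to 28 under every alternative. The 26, on values as deposited, were 25 higher and 1 lower in each comparison. With values as deposited the count was 17 in knockout-labelled against wild-type, 1 in LAP knockout-labelled against knockout-labelled and 22 in LAP knockout-labelled against LAP transgenic marrow. In LB31 it was 0 for BLNK and 2 for YF against the empty vector and 1 for BLNK against YF. Median centring gave 6 for YF against the empty vector and 1 for BLNK against YF. Averaged probe sets gave 0 for LAP transgenic against wild-type marrow and 1 for LAP knockout-labelled against knockout-labelled marrow. With all 21 arrays in one fit the counts were 3 and 5 in these, 2 for the interaction, 1 for BLNK against the empty vector and 0 for BLNK against YF. In that fit the normalization, the genes tested and the spread changed together. The cause of these shifts was not tested.

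Leaving out 1 array at a time gave 6 to 8 members for the knockout label and 0 to 0 for LAP against wild-type. With both changes it gave 9 to 14 against wild-type (9 without LAP knockout array 1 or 2), 1 to 3 against the knockout label (1 without array 1 of either group) and 8 to 11 against LAP. The interaction gave 0 to 0, and LB31 gave 28 to 28 against knockout-labelled and 27 to 28 against LAP knockout-labelled marrow. In LB31 it gave 7 to 10 for BLNK, 0 to 6 for YF (6 without empty-vector array 1) and 6 to 7 for BLNK against YF. Equal replicate numbers did not pair the arrays, since the median correlation of same-numbered deviations was 0.01 in marrow and 0.00 in LB31. With a replicate block the counts were 8, 1, 12, 2, 10 and 0 in the marrow comparisons, 9, 0 and 7 in LB31 and 28 in both comparisons of LB31 with marrow. Arrays give signals, not counts, and 3 per group limit the precision.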
